A study of Rattus norvegicus with 4 samples.

Results

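The DNA replication genes described here are 10 genes of S phase, listed by symbol: the 6 subunits of the MCM helicase (Mcm2 to Mcm7), the sliding clamp Pcna, thymidylate synthase (Tyms) and both subunits of ribonucleotide reductase (Rrm1 and Rrm2). Of these 10 genes, 9 had a row under their symbol among the 21648 genes measured, and all 9 passed the filter on low counts. Rrm2 was not analysed here. The study sequenced RNA of cortical neurons cultured from rat embryos of day 18, with 2 libraries from cells given the solvent DMSO and 2 from cells given topotecan. This drug blocks topoisomerase I, and per the labels it served to reduce the output of long genes. In both groups the cells came from a commercial supplier, were plated in neural induction medium and moved after 24 hours to supplemented neuronal medium. The labels used here state neither the dose and time of exposure nor whether libraries stem from separate cultures, so p-values reflect only the spread among these libraries, which could be technical.

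The MCM proteins form a ring of 6 different subunits. It is loaded onto DNA at replication origins before S phase and then unwinds the DNA ahead of the polymerases. Pcna is the ring that holds polymerases on the template, and Tyms and ribonucleotide reductase make the deoxynucleotides that are used up. Most of these genes are targets of E2F transcription factors and are strongly expressed in dividing cells, such as the progenitors of the cortex and its glial precursors. Neurons have left the cell cycle, so in a culture of neurons these transcripts are a common measure of the dividing cells that remain, although several replication proteins also serve DNA repair in cells that do not divide.

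The libraries held between 22957786 and 31181382 gene counts. Levels are CPM (counts per 1000000 library counts) after TMM scaling, and changes are log2 fold changes of topotecan over DMSO with their standard error (SE) and an adjusted p from edgeR's quasi-likelihood test over all 12162 genes tested. Neuronal markers were abundant in every library, with sums over 9 genes from 16691 to 18177 CPM in DMSO and from 19396 to 20665 CPM in topotecan. Much of this sum is Tubb3, and the 9 genes did not move together: 4 were called higher, and Map2, Rbfox3 and Gad1 were called lower (log2 fold changes -0.47, -0.78 and -0.43). Markers of progenitors and glia were far lower in topotecan. The sums over 9 progenitor and radial glia markers were 341 and 361 CPM in DMSO against 12.7 and 13.2 CPM in topotecan. Most of the DMSO sum is Fabp7 (group means 284 and 0.435 CPM), so the sums largely follow that gene. The next most abundant in DMSO, Sox2, had a log2 fold change of -2.40. Of the 7 progenitor markers tested 6 were lower, and Hes1 was not called (0.50). The sums over 10 astrocyte markers were 3891 and 3960 against 114 and 126 CPM, and those over 9 markers of the oligodendrocyte lineage were 2717 and 3211 against 54.7 and 72.9 CPM. In these bulk samples fewer cells of a type and less RNA per cell cannot be told apart. Microglia were nearly absent, since the sum over 9 markers was at most 0.771 CPM and Aif1, Cx3cr1, Tmem119, C1qa and C1qb were at 0 in all libraries.

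Of the 9 measured genes 6 fell with topotecan, none rose and 3 did not pass the test. The background was large, since 23.5% of all tested genes were called lower and 16.2% higher. The falls were unequal. Mcm3, Mcm5 and Mcm2 fell 39.2-fold, 6.53-fold and 4.72-fold, a size of fall (called and at least 4-fold) that 7.38% of all tested genes reached. Mcm7, Mcm4 and Rrm1 fell by 41.6%, 31.0% and 26.4%. Mcm6, Pcna and Tyms were not called. The median log2 fold change of the 9 genes was -0.54, beside -0.01 over all genes tested. Their genomic spans, from 3.87 to 25.2 kb in RefSeq, are short. Of the 4843 tested genes with a span in that range, 18.1% were lower and 22.6% higher, with a median log2 fold change of 0.10.

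**Figure D1:**
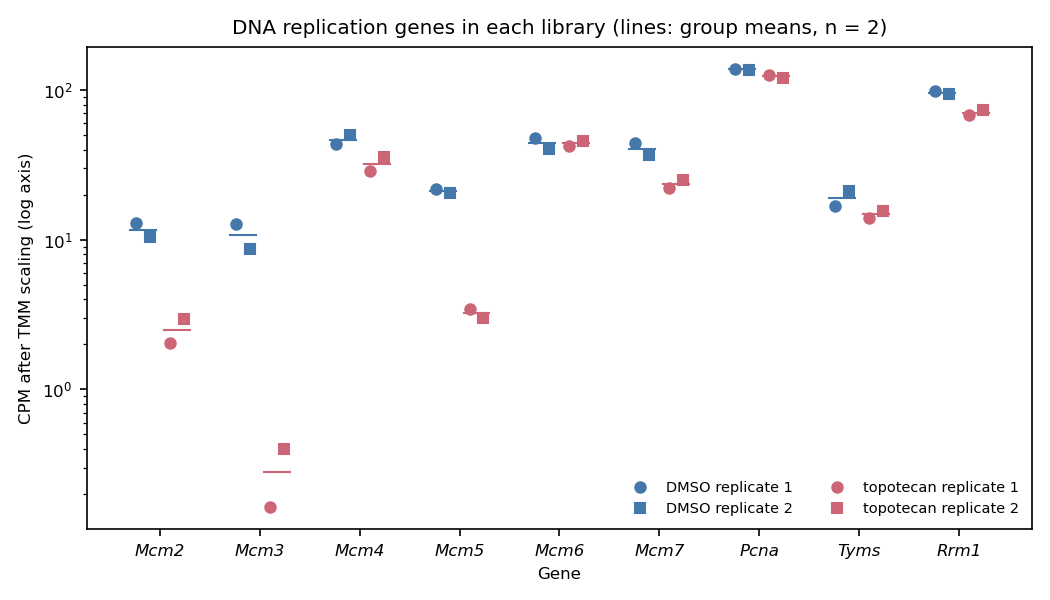
CPM after TMM scaling (log axis) of the 9 measured DNA replication genes, with 1 point per library and a line at each group's mean (n = 2). The topotecan points of Mcm2, Mcm3 and Mcm5 lie far below the DMSO points, those of Mcm6 lie among them, and the other 5 genes show small gaps.

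Mcm3 (ENSRNOG00000012543), which pairs with Mcm5 in the ring, showed the deepest fall of the 9. It stood at 12.7 and 8.65 CPM in the DMSO libraries and at 0.163 and 0.397 CPM in the topotecan libraries. Both topotecan libraries were thus left with few counts, 5 and 10 against 351 and 202. The log2 fold change was -5.29 (SE 0.34, edgeR adjusted p = 2.66e-08). From the summed counts, 553 against 15, the ratio after scaling was 40.4, with an exact 95% binomial interval from 24.3 to 72.7 that covers counting error only. The size of this fall rests on few counts. Leaving out topotecan replicate 1 gave a log2 fold change of -4.73, and leaving out topotecan replicate 2 gave -6.00.

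Mcm5 (ENSRNOG00000014336), the partner of Mcm2 at the gate through which the ring opens, was at 21.8 and 20.4 CPM in DMSO and at 3.43 and 3.01 CPM in topotecan. The log2 fold change was -2.71 (SE 0.16, edgeR adjusted p = 1.01e-08). Mcm2 (ENSRNOG00000016316), the other side of that gate and a histone-binding subunit, was at 12.9 and 10.4 CPM in DMSO and at 2.06 and 2.93 CPM in topotecan. The log2 fold change was -2.24 (SE 0.21, edgeR adjusted p = 1.37e-06). For both genes the groups were far apart, and the libraries within a group were close for Mcm5 and less so for Mcm2. Unlike Mcm3, both kept readily counted transcripts in topotecan, 181 counts of Mcm5 and 137 of Mcm2 over both libraries.

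Of the other 3 subunits, Mcm7 and Mcm4 fell by smaller factors and Mcm6 was not called. Mcm7 (ENSRNOG00000001349) was at 44.1 and 36.7 CPM in DMSO and at 22.1 and 25.2 CPM in topotecan, a log2 fold change of -0.78 (SE 0.13, edgeR adjusted p = 2.58e-04). Mcm4 (ENSRNOG00000001833) was at 43.5 and 50.02 CPM in DMSO and at 29.0 and 35.5 CPM in topotecan, with a log2 fold change of -0.54 (SE 0.12, edgeR adjusted p = 0.00372). The groups did not overlap for either gene, which was so, with topotecan below, for 36.9% of all tested genes. The call of Mcm4 was lost without topotecan replicate 1 (edgeR adjusted p = 0.0782). Mcm6 (ENSRNOG00000003703) was at 47.9 and 40.6 CPM in DMSO and at 42.7 and 45.5 CPM in topotecan, so both topotecan values lay between those of DMSO. Its log2 fold change was -0.01 (SE 0.11, edgeR adjusted p = 0.967), with a 95% interval from -0.25 to 0.23.

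The 6 subunits therefore did not keep their proportions. The ratio of one gene's counts to another's within a library does not depend on the scaling, and its change between libraries does not depend on transcript length. Per 100 counts of Mcm6 there were 26.6 and 21.3 counts of Mcm3 in DMSO, against 0.382 and 0.871 in topotecan. For Mcm5 these ratios were 45.6 and 50.3 against 8.02 and 6.62, and for Mcm2 they were 27.0 and 25.5 against 4.81 and 6.45. For Mcm7 they were 92.0 and 90.3 against 51.6 and 55.3. For Mcm4 they were 90.8 and 123 against 68.0 and 78.0. All 5 ratios were lower in both topotecan libraries than in either DMSO library. Mcm6 was the subunit without a call and the other 5 were called lower, so these ratios restate those calls. With 2 libraries against 2, a 2-sided exact permutation test cannot go below p = 0.333, the value each ratio gave. Summed over Mcm2, Mcm3 and Mcm5 the level went from 43.5 ± 5.69 to 5.99 ± 0.495 CPM (SD, n = 2 each), and summed over Mcm4, Mcm6 and Mcm7 from 131 ± 5.72 to 100 ± 8.80 CPM. This split into groups of 3 was made after the values were seen. It coincides with a known biochemical division, in which Mcm4, Mcm6 and Mcm7 form a stable subcomplex with helicase activity and Mcm2, Mcm3 and Mcm5 associate with it. That division concerns proteins, and a link to these RNA levels was not tested. Within the subcomplex Mcm4 and Mcm7 were called lower and Mcm6 was not.

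**Figure D2:**
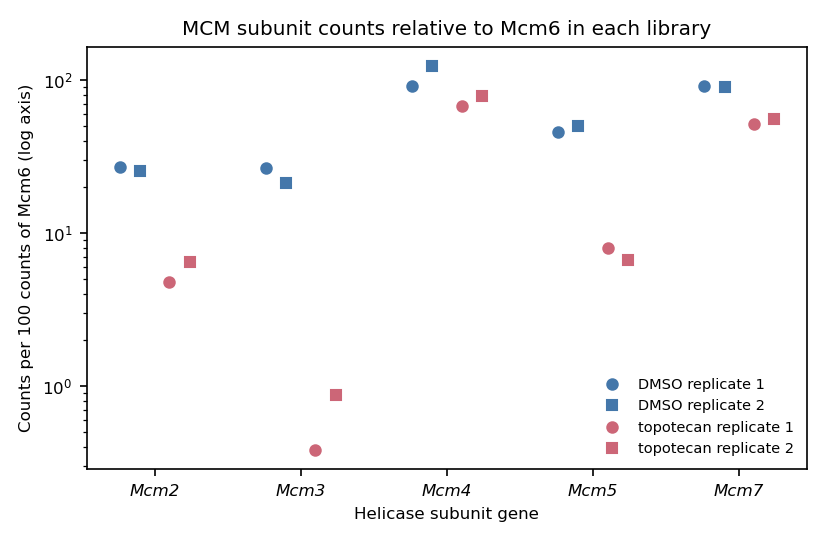
Counts of 5 MCM subunit genes per 100 counts of Mcm6 in each of the 4 libraries (log axis). The ratio of Mcm3 drops from 26.6 and 21.3 in DMSO to 0.382 and 0.871 in topotecan, while those of Mcm4 and Mcm7 stay above 50.

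Promoter sequences were at hand for 5 of the 6 MCM genes, all but Mcm4, and all 5 held a match to the E2F motif. E2F proteins bind sites of the form TTTCCCGC, TTTCGCGC, TTTGCCGC or TTTGGCGC, and these letters were searched on both strands from 250 bases before to 50 after the RefSeq start (assembly GRCr8). A match was held by 2.14% of all 33469 RefSeq promoters, which include those of genes not tested here. Among the tested genes with a promoter entry the share was higher, with 371 that held a match and 9262 that did not. Of the 8 listed genes with a promoter entry 6 held one: Mcm2, Mcm3, Mcm5, Mcm6, Mcm7 and Tyms. The windows below show the matches in capitals, each read 5′ to 3′ on the gene's strand. In Mcm2, Mcm5 (the distal window) and Mcm6 matches on both strands overlap, so the capitals run longer than 1 site. They are shown because the gene that fell most (Mcm3) and the gene that was level (Mcm6) both carry them.
Mcm2, chr4:122918088-122918117, minus strand, 14 bases before the start: tgacccggtTTTCGCGCGAAAacccgtggc
Mcm3, chr9:30733734-30733763, minus strand, 6 bases before the start: aaacttccgtgGCGGGAAAacttgggaagt
Mcm3, chr9:30733715-30733744, minus strand, 14 bases after the start: acttgggaagtTTTCGCGCcagggaggagt
Mcm5, chr19:13488591-13488620, plus strand, 213 bases before the start: gctcagaagTTTCGCGCCAAAacgtcccgc
Mcm5, chr19:13488794-13488823, plus strand, 8 bases before the start: ccaggttggttTTTCCCGCgaaagtcggct
Mcm6, chr13:42404471-42404500, minus strand, 139 bases before the start: gcgtctgctTTTGGCGCGAAAttagcgtgt
Mcm7, chr12:22163212-22163241, minus strand, 52 bases before the start: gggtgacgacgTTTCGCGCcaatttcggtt
Tyms, chr9:120776102-120776131, minus strand, 37 bases before the start: aaggtgcgggtTTTGGCGCcgactacactg

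A second match in Mcm7 lay 233 bases before the start. The 250 bases before the start of Mcm3 and Mcm6 are given in full to set the most changed subunit gene beside the level one. Capitals mark E2F matches and CCAAT boxes, the sites of the factor NF-Y, on either strand (ATTGG is CCAAT on the other strand). A CCAAT box was present in 37.5% of all promoters.
Mcm3, chr9:30733747-30733996, minus strand: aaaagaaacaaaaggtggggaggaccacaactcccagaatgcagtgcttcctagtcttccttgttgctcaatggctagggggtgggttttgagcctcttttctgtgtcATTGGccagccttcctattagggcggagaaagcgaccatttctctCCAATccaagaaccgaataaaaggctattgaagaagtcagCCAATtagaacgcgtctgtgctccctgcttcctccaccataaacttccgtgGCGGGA
Mcm6, chr13:42404353-42404602, minus strand: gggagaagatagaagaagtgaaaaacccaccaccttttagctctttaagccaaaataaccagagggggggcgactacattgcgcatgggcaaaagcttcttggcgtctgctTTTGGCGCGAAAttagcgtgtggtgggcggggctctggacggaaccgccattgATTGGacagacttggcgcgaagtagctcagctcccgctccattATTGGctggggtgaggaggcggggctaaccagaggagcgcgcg
Mcm3 has 3 CCAAT boxes in the searched window and Mcm6 has 2, and the E2F match at the end of the Mcm3 stretch runs on past the start. Mcm5 and Mcm7 have 3 CCAAT boxes each, Mcm2 and Tyms have none, and Pcna and Rrm1 have 1 each. The CHR element TTTGAA, found in many genes of late cell cycle and in 18.3% of all promoters, occurred only in Mcm2 (2 matches) among the 8. Over all tested genes with a promoter entry, 25.6% of the 371 with an E2F match were lower in topotecan, beside 23.5% of the 9262 without. Of the tested replication genes with an entry, the listed ones and those of the 6 lists below, 30 held an E2F match, of which 15 fell and 1 rose (median -0.48). The 43 without a match held 14 that fell and 10 that rose (median -0.18). The same genes split by CCAAT box also differed. Of the 37 with a box 20 fell and 4 rose (median -0.42). Of the 36 without a box 9 fell and 7 rose (median -0.07). Both splits include the listed genes described above, and a link of either motif to the changes was not tested. A match is a description of the letters, not a measured site.

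The clamp gene Pcna (ENSRNOG00000021264) was at 139 and 137 CPM in DMSO and at 126 and 121 CPM in topotecan. The groups lay apart but by little, with topotecan below, as in 36.9% of all tested genes. The log2 fold change of -0.16 (SE 0.08, 95% interval from -0.34 to 0.02) did not pass (edgeR adjusted p = 0.143). Falls of the size seen in Mcm2, Mcm3 and Mcm5 lie outside that interval.

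Among the genes of deoxynucleotide supply, Rrm1 (ENSRNOG00000045752), the catalytic subunit of ribonucleotide reductase, was at 99.1 and 93.7 CPM in DMSO and at 68.7 and 73.2 CPM in topotecan. The log2 fold change of Rrm1 was -0.44 (SE 0.09), with an edgeR adjusted p of 0.00162. Tyms (ENSRNOG00000037225), which makes thymidylate from deoxyuridylate, was at 16.9 and 21.1 CPM in DMSO and at 14.1 and 15.5 CPM in topotecan. The groups did not overlap, with topotecan below, as in 36.9% of all tested genes. The log2 fold change of -0.36 (SE 0.14) missed the threshold (edgeR adjusted p = 0.0614). It passed without DMSO replicate 1, the lower of the DMSO libraries (-0.50, adjusted p = 0.00386).

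For the small subunit of the reductase, whose level follows the cell cycle, there is a row under another symbol that may belong to it. LOC100359539 (ENSRNOG00000008450) is described there as an M2 polypeptide of ribonucleotide reductase. That it is the gene Rrm2 was not established, it falls outside the list by its symbol, and it was chosen after its values were seen. It was at 7.65 and 8.01 CPM in DMSO and at 0.131 and 0.238 CPM in topotecan, or 211 and 187 counts against 4 and 6. The log2 fold change was -5.41 (SE 0.31, edgeR adjusted p = 8.05e-09), and the ratio of summed counts was 43.7 with an interval from 23.5 to 91.7. The alternative small subunit Rrm2b, which p53 induces and which serves cells outside S phase, had a log2 fold change of -0.38 (SE 0.24, edgeR adjusted p = 0.233) and stood at 2.79 ± 0.411 CPM in DMSO and 2.13 ± 0.0147 CPM in topotecan (SD, n = 2 each). The catalytic subunit gene and the row of the M2 polypeptide thus had log2 fold changes of -0.44 and -5.41.

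The rest of the replication pathway was read from 6 lists with 75 tested genes in all. Of these 27 fell, 13 rose and 35 were not called, with a median log2 fold change of -0.27, beside 23.5% lower and 16.2% higher over all tested genes. The share that rose is near this background, and so are the counts of several of the single lists below, which are given as descriptions. The rises numbered 7 when topotecan replicate 1 was left out and 9 when replicate 2 was. In these same libraries the sums of progenitor, astrocyte and oligodendrocyte markers differed as given above, and the part of those cells in any of these changes was not tested.

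Of 12 origin recognition and licensing genes 4 were lower and 2 higher (median -0.17), counts near the background of 23.5% and 16.2%. Cdc6, which helps load the MCM ring, fell from 4.06 ± 0.661 to 1.004 ± 0.242 CPM (log2 fold change -2.002, SE 0.27). Gmnn, which codes for geminin, the inhibitor of relicensing, fell by 1.06 (SE 0.14). Orc4, a subunit of the origin recognition complex, rose by 0.45 (SE 0.10) to 64.7 ± 3.56 CPM. Orc6 was the other gene of this list that rose, by 0.31.

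Genes that activate the helicase and accompany the fork had a median of -1.03, with 8 of 14 lower and 1 higher. The shares over all genes tested were 23.5% lower and 16.2% higher. Mcm10, a factor that activates the loaded helicase, dropped from 59 and 61 counts with DMSO to 3 and 0 with topotecan, a ratio of 43.9 with a counting interval from 14.7 to 216. Timeless, a fork protection gene, fell from 9.20 ± 1.08 to 3.33 ± 0.276 CPM (log2 fold change -1.46, SE 0.18). Cdc45, the partner of the active MCM ring, and Gins1 fell by 1.33 and 1.27, whereas Gins2, another subunit of the same GINS complex, rose by 0.85. Cdc7, the kinase that triggers the loaded ring, was not called (0.18, SE 0.13). Its partner Dbf4 had at most 1 count in any library and was not tested.

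Of 11 polymerase and primase genes 5 fell and 3 rose (median -0.35), beside 23.5% and 16.2% over all genes tested. Pold1, the catalytic subunit of polymerase delta, fell by 1.51 (SE 0.22), while its partner Pold2 rose by 0.42. Prim2, the large primase subunit, fell from 15.8 ± 0.612 to 7.46 ± 0.165 CPM (log2 fold change -1.09, SE 0.14), while Prim1, the catalytic primase subunit, rose by 0.28 (SE 0.09). Prim2 spans 212 kb and Pola1, which fell by 1.18, spans 314 kb, whereas Prim1 and Pold1 span 15.7 and 16.1 kb. The part of gene length in these changes was not tested.

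Clamp loader, RPA and Okazaki fragment genes changed by small factors. Of 15 tested genes 5 fell and 2 rose (23.5% and 16.2% over all genes), none fell by as much as 2-fold, and the median was -0.27. Rpa2, a subunit of the single-strand binding protein, fell by 0.54 (SE 0.14). Rnaseh2a, the catalytic subunit of the nuclease that removes ribonucleotides from DNA, rose from 131 ± 11.1 to 187 ± 3.78 CPM (log2 fold change 0.51, SE 0.09).

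Of 15 further genes of deoxynucleotide synthesis 3 fell and 5 rose (median -0.04), and the count of falls lies below the 23.5% over all genes. Those that fell included Tk1, the S-phase thymidine kinase (log2 fold change -1.67, SE 0.21), and Dck, a salvage kinase (-0.56). Nme1 and Nme2, nucleoside diphosphate kinases with broad roles outside replication, rose by 0.53 (SE 0.07) and 0.31 (SE 0.08). Among 8 genes of replication-coupled chromatin 2 fell, both deeply, a count near the 23.5% over all genes. Uhrf1, which guides maintenance methylation behind the fork, had a log2 fold change of -5.96 (SE 0.37). The histone chaperone gene Asf1b was at -5.39 (SE 0.31). The paralog Asf1a (0.01), the chaperone gene Nasp (0.07, SE 0.09) and Dnmt1 (-0.18) were not called.

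**Figure D3:**
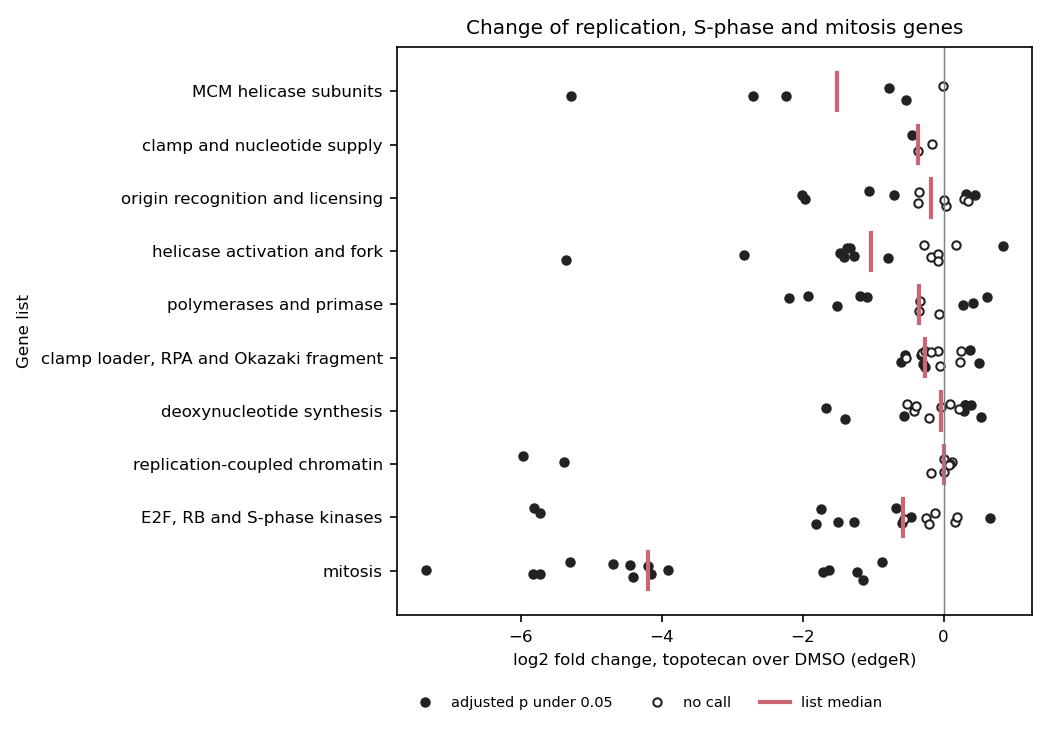
Log2 fold change of each tested gene (points, filled where the edgeR adjusted p is under 0.05) and the median (red bar) in the lists of replication, S-phase control and mitosis genes. All 15 mitosis genes lie below 0, whereas the 6 lists of other replication genes hold 27 genes called lower, 35 not called and 13 called higher, and no gene of the clamp loader list fell by as much as 2-fold.

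Of 16 tested S-phase control genes 9 were lower and 1 was higher, with a median of -0.58. Over all genes tested, 23.5% were lower and 16.2% higher. Cdk2, the kinase of S phase, dropped from 288 and 186 counts with DMSO to 9 and 0 with topotecan, a ratio of 57.8 with a counting interval from 30.2 to 127. Ccne2, one of its cyclins, fell from 16.1 and 17.1 CPM to 6.85 and 6.86 CPM (log2 fold change -1.28, SE 0.14). Tfdp1, the partner of E2F proteins, was not called (0.16, SE 0.10), while Tfdp2 was higher (0.66). The E2F genes themselves differed. E2f1 (-0.24), E2f4 (-0.21) and E2f5 (-0.56) were not called. E2f6 (-0.59), E2f7 (-1.50) and E2f8 (-5.72) were lower, E2f8 from 27 and 33 counts to 1 and 0. E2f2 and E2f3 were not tested.

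Genes of mitosis, a later stage of the same cycle, all fell (15 of 15 tested, median -4.19), beside 23.5% lower over all genes tested. Nusap1, a spindle gene, went from 504 and 421 counts to 3 and 3. Cdk1, the mitotic kinase, fell by 5.30 (SE 0.22), and Kif20a, a kinesin of cell division, by 1.14 (SE 0.13). Of the 9 replication genes only Mcm3 lay below the median of the mitosis list.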

How the data were processed

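Gene counts for the 4 libraries were deposited as whole numbers, without normalization. STAR and edgeR are named per the submitters' processing notes. The sources used here do not give versions, genome build, annotation, counting tool or strand setting, so overlapping genes and near-identical copies may share reads. The labels name a small RNA library kit, yet at least 96.3% of counts fell on protein-coding genes. The 22641 rows held 21648 identifiers, of which 792 stood on several rows with identical counts and were used 1 time.

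The fit used edgeR 4.0.16 in R 4.3.3 (quasi-likelihood F-test, TMM, filterByExpr with minimum count 10 and minimum total 15, treatment as the only term, 2 residual degrees of freedom), with Benjamini-Hochberg adjustment over 12162 genes and a threshold of 0.05. The fit was tested on simulated data. In that simulation few genes changed, equally up and down and by at most 4-fold. It therefore does not cover changes as widespread as those here or falls as deep as that of Mcm3. SE is the log2 fold change over the square root of F. Replicates differed by more than sampling noise (chi-square per degree of freedom 13.0 in DMSO and 9.34 in topotecan). Same-numbered libraries' deviations correlated at -0.123 over 4198 genes, so the numbers were not taken to pair samples. Alternatives were other scalings, no filter, DESeq2 1.42.0, limma-voom (limma 3.58.1), replicate blocks and leaving out each library.

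Named genes were the 10 listed genes and, of each further list, the 2 with the smallest adjusted p and the one with the highest mean CPM over the 4 libraries, with the RefSeq neighbours, Rrm2b and Top1. Others named were chosen after their values were seen. The genes and lists were chosen with earlier results of these data known. Top1, the target of the drug, had at most 2 counts in any library, so its row gives no reading. Spans come from RefSeq (GRCr8) as a property of the gene. Promoters were matched for 8 of the 10 genes.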

Additional observations from a re-analysis of the deposited data

How the results depend on the processing

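Each of the 9 genes was refitted under 12 alternatives, 2 of them (scaling to the neuron markers and a crossed replicate block) chosen after seeing the data. The calls of Mcm2, Mcm3, Mcm5, Mcm7 and Rrm1, and the lack of a call of Pcna, held in all 12. The count of lower genes was 6 with the replicate block, which changed no call of the 9, and 7 with the crossed block; it ranged from 5 to 7 over the libraries left out. Tyms passed with no low-count filter (-0.35), the crossed replicate block (-0.36), scaling to neuron markers (-0.42) and without DMSO replicate 1 (-0.50). Mcm4 did not pass without topotecan replicate 1 (-0.39). Mcm6 changed sign but was never called, at 0.01 with DESeq2 size factors (0.0065), without a filter (0.0066) and with DESeq2 (0.0114), 0.03 with upper-quartile scaling (0.0267), 0.13 without DMSO replicate 1 (0.1287) and 0.05 without topotecan replicate 1 (0.045); leaving out each library gave -0.1176 to 0.1287. The other replication genes counted as lower numbered from 19 (DESeq2) to 28 (neuron scaling). Those counted as higher ranged from 7 to 16 over the libraries left out and were 9 with neuron scaling. The block gave 24 lower and 13 higher. A left-out library leaves its group with 1 sample, assumed to vary like the other group. The causes of these shifts were not tested. Depth limits the size of the fall of Mcm3, which rests on 15 topotecan counts.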

Other observations

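Genes induced by p53, the factor that stalls the cycle after DNA damage, moved in both directions: among 17 tested genes 6 were lower and 5 higher (23.5% and 16.2% over all genes tested), and the median log2 fold change was 0.01. Cdkn1a, the inhibitor of cyclin-dependent kinases, fell from 4.50 and 5.52 CPM to 1.99 and 1.78 CPM, and the death receptor gene Fas from 64 and 33 counts to 2 and 4. Plk2, a kinase also induced by neuronal activity, rose by 0.46 (SE 0.08). Pcna, itself a known p53 target, was not called, as given above.

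RefSeq places other genes within 1 kb of Mcm4 and Mcm7 or inside Mcm7. It also places the pseudogene Cct7-ps4 over Mcm3 and the tRNA gene Trnas-aga41 inside Mcm6, and neither had a row under its symbol. Prkdc, the catalytic subunit of the DNA-dependent protein kinase, lies beside Mcm4 and had a log2 fold change of -0.57 (SE 0.20, edgeR adjusted p = 0.0354), beside -0.54 for Mcm4. Ap4m1 and Cops6, the neighbours of Mcm7, were not called (0.19, SE 0.11, and 0.19, SE 0.12), while Mcm7 fell by 0.78. The microRNA genes Mir25, Mir93 and Mir106b lie inside Mcm7, and each had at most 3 counts in any library.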
